A study of Mus musculus with 2 samples.

Results

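Ribosomal protein genes were examined for binding of Notch1 in gamma delta T cells, with the genes of the cytosolic ribosome set beside those of the mitochondrial ribosome. Members were taken by gene symbol, and the families were chosen with earlier results of these data known. The cytosolic family comprised 85 protein-coding genes whose symbol is Rpl, Rps or Rplp followed by a digit, without the Rps6k kinases and without names that mark a pseudogene. The mitochondrial family comprised 78 genes with symbols starting Mrpl or Mrps followed by a digit. Together they are 163 of the 21938 nuclear protein-coding genes of the GENCODE M21 annotation. The symbols also brought in 9 cytosolic entries that are paralogs or not subunits of the ribosome, such as Rpl3l, Rpl22l1 and the binding protein gene Rps19bp1.

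The measurement was chromatin immunoprecipitation followed by sequencing (ChIP-seq). The cells were primary gamma delta T cells. They came from thymus, and the animals were C57BL/6 mice of wild-type genotype, aged 0 to 3 days after birth. Chromatin was precipitated with a rabbit monoclonal antibody against Notch1 (clone D1E11). The series held 1 such library and 1 input library of the same cells without antibody, and the input is not analysed here. The deposited list gave 5910 peaks on nuclear chromosomes of mouse build mm10, each with a score of the authors' own from 55.4 to 3220.8 and a median of 718. The score serves below only to rank peaks within this list. With 1 library and no replicate there was no test between conditions. The intervals below cover counting over genes only, and genes are not replicates. A peak list does not measure expression, so the labelled cell type could not be checked against marker genes.

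Cytosolic ribosomes translate nuclear messenger RNAs, and their proteins are made from a large set of strongly and coordinately expressed genes. Their messenger RNAs typically begin with a tract of pyrimidines that ties translation to growth signals. Mitochondrial ribosomes translate the few messenger RNAs of the mitochondrial genome, but all of their proteins are encoded in the nucleus. Genes of both families are expressed in nearly every cell, mostly from promoters of the CpG island type. Notch1 acts on DNA as a cleaved intracellular domain held by the factor RBPJ, whose core sequence is TGGGAA.

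The sequences under the peaks are shown first for 6 members, because they differ in the features compared below. They are parts of the peaks outside annotated untranslated regions, at most 300 bases each, read from mm10 and written 5′ to 3′ on the gene's strand. Capitals mark TGGGAA (the RBPJ core), CCGGAA (the core of ETS factor sites) and GGGCGG (the site of SP and KLF factors), or their reverse complements.
Rpl4, chr9:64173105-64173374, + strand, the 270 bases before the start site: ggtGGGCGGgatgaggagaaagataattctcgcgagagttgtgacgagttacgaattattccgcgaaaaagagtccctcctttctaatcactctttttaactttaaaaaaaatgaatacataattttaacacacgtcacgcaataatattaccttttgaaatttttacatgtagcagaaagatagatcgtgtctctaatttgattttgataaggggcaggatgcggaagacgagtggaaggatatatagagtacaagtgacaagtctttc
Rpl37, chr15:5116345-5116644, + strand, the 300 bases before the start site: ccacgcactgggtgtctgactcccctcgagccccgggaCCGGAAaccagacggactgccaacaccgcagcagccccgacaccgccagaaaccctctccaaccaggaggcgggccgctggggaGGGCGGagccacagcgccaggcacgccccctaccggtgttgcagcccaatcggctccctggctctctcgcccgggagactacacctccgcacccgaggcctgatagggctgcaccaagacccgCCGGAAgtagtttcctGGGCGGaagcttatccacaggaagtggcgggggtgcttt
Rpl23a, chr11:78183585-78183786, - strand, the 202 bases before the start site: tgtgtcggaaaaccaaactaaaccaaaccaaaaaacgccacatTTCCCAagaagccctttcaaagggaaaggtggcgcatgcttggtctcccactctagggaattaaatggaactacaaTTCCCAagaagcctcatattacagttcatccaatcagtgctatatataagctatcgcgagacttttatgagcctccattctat
Rps19, chr7:24887280-24887463, + strand, a whole peak inside the gene: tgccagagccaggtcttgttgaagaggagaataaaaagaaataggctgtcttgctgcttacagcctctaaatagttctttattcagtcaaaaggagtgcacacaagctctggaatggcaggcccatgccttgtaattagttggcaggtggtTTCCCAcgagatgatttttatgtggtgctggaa
Mrps31, chr8:22411156-22411360, + strand, the 205 bases before the start site: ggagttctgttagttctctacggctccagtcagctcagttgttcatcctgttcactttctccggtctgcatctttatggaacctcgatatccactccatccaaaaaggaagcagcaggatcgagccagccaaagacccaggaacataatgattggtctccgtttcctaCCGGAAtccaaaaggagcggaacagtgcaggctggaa
Mrpl34, chr8:71464691-71464958, + strand, the 268 bases before the start site: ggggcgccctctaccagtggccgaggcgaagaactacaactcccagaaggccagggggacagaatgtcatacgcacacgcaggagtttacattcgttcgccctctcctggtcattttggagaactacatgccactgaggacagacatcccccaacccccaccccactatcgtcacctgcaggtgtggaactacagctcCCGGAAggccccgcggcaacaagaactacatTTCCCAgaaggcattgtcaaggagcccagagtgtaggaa
The stretches ranged widely in base composition, from a GC content of 37.0% at Rpl4 to 68.0% at Rpl37. The Rpl23a stretch held 2 RBPJ cores, Rps19 and Mrpl34 held 1 each, and Rpl4, Rpl37 and Mrps31 held 0.

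The first question was how often genes of each family carried a Notch1 peak near a start site. A gene counted if a peak overlapped the window of 1 kb, or of 5 kb, on either side of any of its annotated start sites. Within 1 kb, 13 of 85 cytosolic genes had a peak, a share of 15.3% (Wilson 95% interval 9.16 to 24.4%). Over all protein-coding genes 5.16% had one. Among the mitochondrial genes 9 of 78 had a peak within 1 kb, a share of 11.5% (6.19 to 20.5%). Within 5 kb the counts were 18 cytosolic genes (21.2%, 13.8 to 31.0%) and 11 mitochondrial genes (14.1%, 8.06 to 23.5%), beside 8.81% of all protein-coding genes. The cytosolic intervals lay above the share of all genes in both windows. The mitochondrial interval lay above it within 1 kb and included it within 5 kb.

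The families were not separated from each other at this number of genes. The cytosolic share exceeded the mitochondrial share by 3.76 percentage points within 1 kb (Newcombe 95% interval -7.10 to 14.3) and by 7.07 points within 5 kb (-4.86 to 18.6). Both intervals include 0, and they also include cytosolic shares well above the mitochondrial ones. The direction within 1 kb turned when only the start site of each gene's principal transcript (APPRIS) was used, an alternative chosen after seeing the data. It gave 10.6% of cytosolic, 11.5% of mitochondrial and 3.86% of all genes. Within 5 kb it gave 18.8%, 14.1% and 6.56%. The 9 cytosolic paralogs and other entries had no peak within 5 kb (0 of 9, 0 to 29.9%). All cytosolic genes with a peak were therefore among the 76 core subunit genes, of which 18 (23.7%) had a peak within 5 kb.

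Peaks lay over start sites of ribosomal protein genes, not only beside them. A peak covered an annotated start site in 11 cytosolic genes (12.9%, 7.38 to 21.7%) and in 6 mitochondrial genes (7.69%, 3.57 to 15.8%). Over all protein-coding genes the share was 2.17%. Of the genes with a peak within 1 kb, 84.6% of the cytosolic, 66.7% of the mitochondrial and 42.1% of all protein-coding genes had a start site covered. Cytosolic genes have more annotated start sites, a median of 6 beside 4 for mitochondrial and 3 for all genes, which gives more chances of cover. Among other genes alike in both number of start sites and CpG ratio (defined below), 3.82% for the cytosolic and 2.97% for the mitochondrial family had a start site covered.

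**Figure D1:**
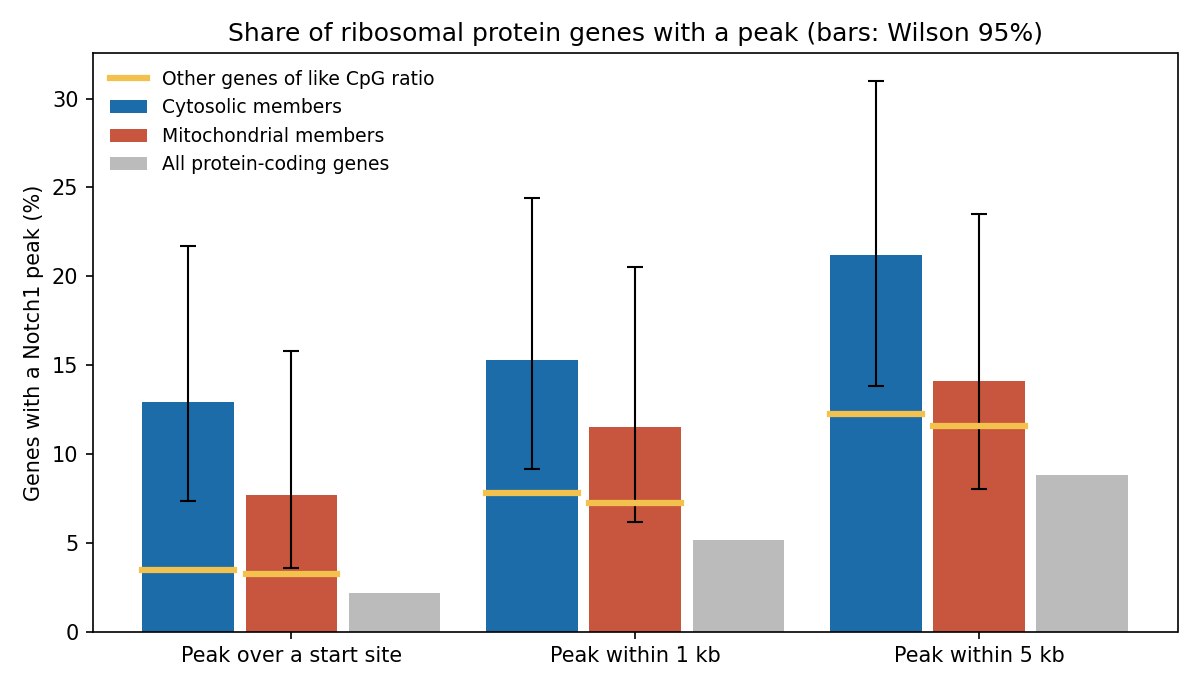
Share of genes (%) with a Notch1 peak over a start site, within 1 kb and within 5 kb, for the 85 cytosolic (blue) and 78 mitochondrial (red) ribosomal protein genes and all protein-coding genes (grey). Error bars are Wilson 95% intervals, and yellow lines give the share in other genes of like promoter CpG ratio; the blue bars stand at 12.9, 15.3 and 21.2%.

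Within the cytosolic family, 8 of 33 genes named Rps had a peak within 1 kb (24.2%), beside 5 of 52 named Rpl or Rplp (9.62%). The 33 include Rps19bp1. The difference was 14.6 points (Newcombe 95% interval -1.22 to 32.3), and within 5 kb it was 9.97 points (-7.45 to 28.7), so both intervals include 0. In the mitochondrial family 6 of 49 genes named Mrpl and 3 of 29 named Mrps had a peak within 1 kb (12.2 and 10.3%). These groups were sorted by symbol only.

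Of the small subunit genes, Rps14 carried the cytosolic peak of highest score, 1761, which ranked 155 among the 5910 peaks. It spanned 752 bp at chr18:60773936-60774687 and covered an annotated start site at 60774596. The main start site lay 26838 bp from the peak. A main start site is the one used by most annotated transcripts, with ties going to the one farthest upstream. Each of the 10 annotated transcripts of Rps14 had its own start, so the tie rule set this site. The same held at Rps10, Rps19, Rpl23 and Mrpl33. Rps14 encodes a protein of the small subunit platform. Rps27 had a narrow peak of 188 bp at chr3:90213437-90213624 with a score of 1396. It reached from a start site into the gene, and a start site of the neighbouring gene Rab13 lay within 1 kb of it. Rps3, which encodes a protein at the entry of the messenger RNA channel, had a peak at chr7:99483404-99483833 with a score of 929. That peak held 2 RBPJ cores and its midpoint lay 16 bp downstream of a start site.

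Other small subunit promoters carried peaks of middle or low score. The peak at Rps10 (chr17:27635030-27635437, score 829) covered a start site that Rps10 shares with the annotated read-through gene RPS10-NUDT3, and lay 1232 bp from the main start site of Rps10. The Rps7 peak (chr12:28635543-28635834, score 773) had its midpoint 8 bp downstream of a start site. The Rps9 peak (chr7:3703653-3704032, score 577) lay mostly before the start site, and only 9.36% of the list scored lower.

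Rps19 differed from these. Its peak, printed above, scored 1458 but lay inside the gene, 2909 bp from the main start site and 727 bp before an annotated internal start. The peak had a CpG ratio of 0.114 and 23.9% of its bases were soft-masked as repeats. Rps19 encodes a small subunit protein whose loss is known from a congenital anaemia. With 1 start site per gene, Rps19 did not count as having a peak within 1 kb.

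Of the large subunit genes, Rpl4 had the widest and highest scoring peak over its own start site. Rpl4, whose product lines part of the exit tunnel, shares a promoter region with the divergent gene Zwilch. The peak of 719 bp at chr9:64173065-64173783 (score 1474, rank 268) covered start sites of both genes. The stretch between them, printed above, was poor in GC at 37.0% and yet rich in CpG, with 12 CpG and a ratio of 1.35. Rpl23a, whose product sits at the mouth of the exit tunnel, had a peak at chr11:78183357-78183786 (score 800) centred 13 bp downstream of the start site, with 4 RBPJ cores. No other member peak had as many.

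Rpl21 carried a pair of peaks. The first (chr5:146832697-146833109, score 760) covered the main start site, and the second (chr5:146835102-146835517, score 637) covered an annotated start inside the gene and overlapped a snoRNA gene. The Rpl37 peak (chr15:5116294-5116672, score 665) covered the start site, with its midpoint at -162 bp. The peak at Rpl23 (chr11:97777375-97777679, score 757) lay at the other end of the gene, 4758 bp from the main start site and 956 bp from an internal one.

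The other 5 cytosolic genes had a peak between 1 and 5 kb away, and at 2 of them a start site of another gene was nearer. The peak near Rpl24 (chr16:55973566-55974070, score 1610) covered a start site of Zbtb11. Rpl41, which encodes a very small protein of the large subunit, had a pair of peaks (scores 963 and 667), both nearer to Zc3h10. Rps26, Rpl14 and Rpl6 had 1 peak each (684, 669 and 612) with no other protein-coding start site within 1 kb. Those 3 peaks lay 4151, 1962 and 4686 bp from a start site, downstream of Rps26 and Rpl14 and upstream of Rpl6. Rps29 fell outside the window, with its nearest peak at 9.43 kb.

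**Figure D2:**
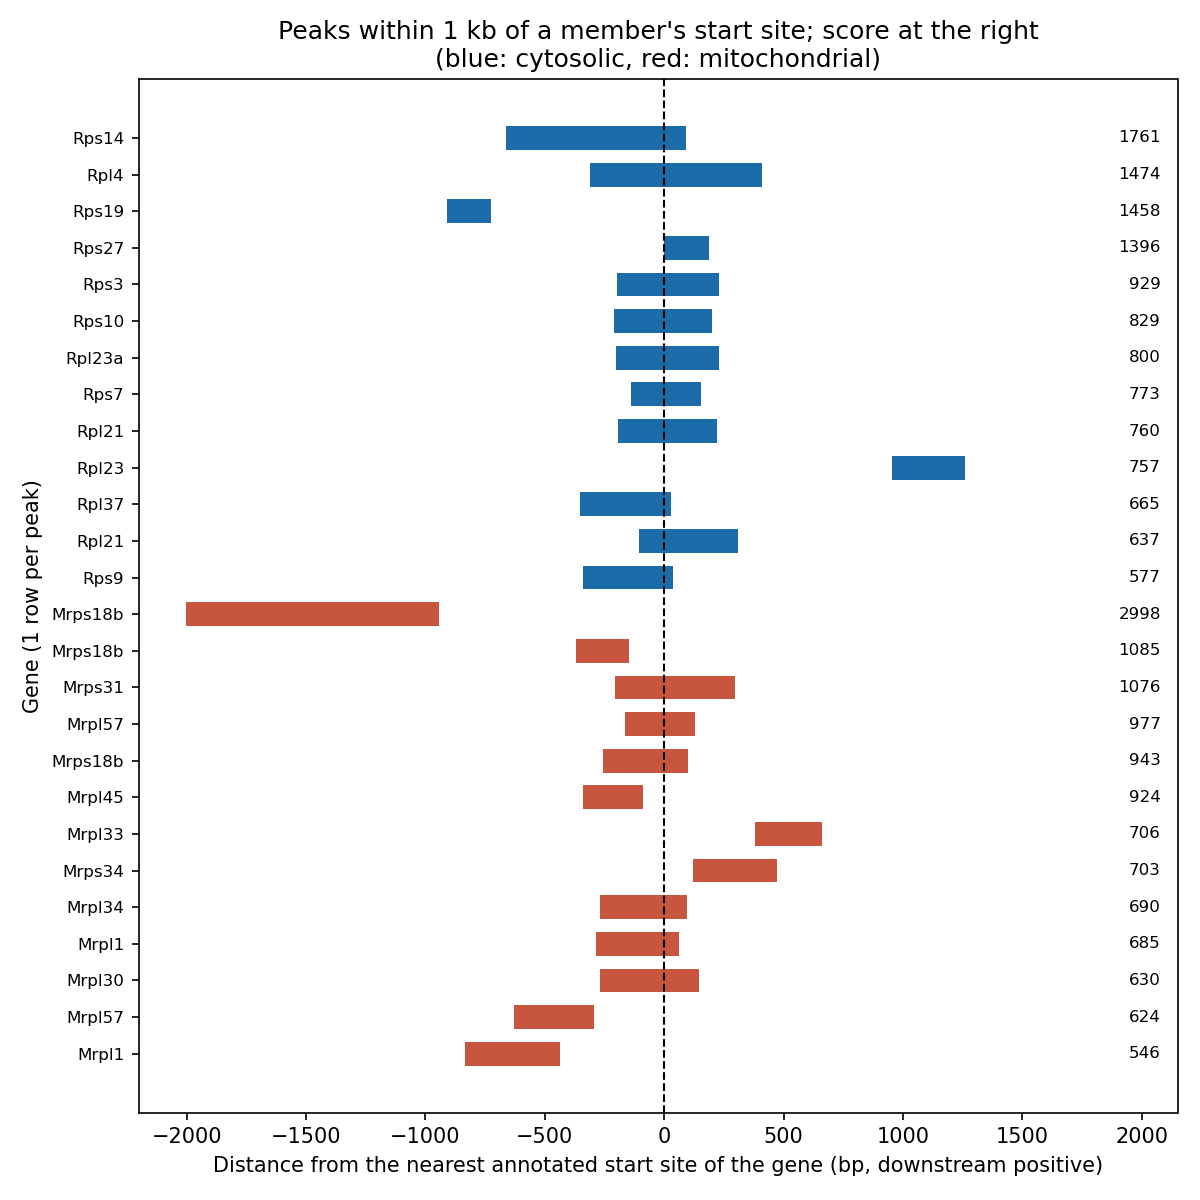
Position of the peaks within 1 kb of an annotated start site of a member, as distance in bp from the nearest start site (dashed line), with 1 row per peak and the authors' score at the right; 1 cytosolic peak is not shown. Blue bars are peaks of cytosolic genes and red bars of mitochondrial genes; blue bars cross the line except at Rps19 and Rpl23, and the top red bar is the Mrps18b peak of score 2998.

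In the mitochondrial family the small subunit gene Mrps18b stood out by the score and number of its peaks. It had 3 within 1 kb, of scores 2998, 1085 and 943. The one of highest score was 1060 bp wide (chr17:35917333-35918392) and ranked 42 in the list, but it lay within the divergent gene Ppp1r10 and nearer to a start site of that gene. Only the peak of score 943 (chr17:35916104-35916458) covered a start site of Mrps18b, and it covered one of Ppp1r10 as well. Mrps31 had a peak of score 1076 at chr8:22411156-22411658 over its own start site, with no other protein-coding start within 1 kb. Mrps34 had a peak in its coding sequence (chr17:24895258-24895609, score 703), 123 bp from a start site, with start sites of Eme2 and Nme3 within 1 kb.

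Of the large subunit genes of the mitochondrial ribosome, Mrpl57 had a peak of score 977 at chr14:57826072-57826363 that covered its own start site and that of the divergent gene Ska3. A second peak of score 624 lay 296 bp away on the Ska3 side. Mrpl30 had a peak of score 630 (chr1:37890207-37890621) over start sites of itself and of Mitd1. Mrpl34 (chr8:71464691-71465055, score 690) and Mrpl1 (chr5:96209829-96210177, score 685) had peaks over their own start sites, and Mrpl1 had a second of score 546 further upstream. Mrpl45, whose product anchors the ribosome at the inner membrane, had a peak of score 924 ending 87 bp before its start site. The Mrpl33 peak (score 706) lay inside the gene and was 24.7% soft-masked. It lay 383 bp from an internal start, 596 bp from that of the principal transcript and 17600 bp from the main one. Within 5 kb but not 1 kb were Mrpl2 (score 765), where the peak covered a start site of Cul7, and Mrpl41 (654). Mrps9 fell outside, with its nearest peak at 9.53 kb.

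Shared promoters were more common in the mitochondrial family. A start site of another protein-coding gene on the opposite strand lay within 1 kb of the main start site in 33 of 78 mitochondrial genes (42.3%), in 16 of 85 cytosolic genes (18.8%) and in 11.4% of all genes. Of the genes with a peak within 1 kb, another gene's start site lay within 1 kb of a peak in 4 of 9 mitochondrial and 3 of 13 cytosolic genes. For all protein-coding genes with a peak this share was 20.6%. A peak at such a place cannot be assigned to either gene from its position. Among genes with no other start site within 1 kb, 9 of 66 cytosolic genes (13.6%, 7.34 to 23.9%) and 5 of 44 mitochondrial genes (11.4%, 4.95 to 23.98%) had a peak within 1 kb. The share among all other protein-coding genes of that kind was 4.54%.

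By score the cytosolic peaks ran from low to high places in the list, with most in its upper part. The 14 peaks within 1 kb had a median score of 787, from 577 to 1761, and 10 of them scored at least the list's median. The 13 mitochondrial peaks had a median of 706, from 546 to 2998, with 6 at or above the list's median. All 1173 peaks within 1 kb of a protein-coding start site had a median of 749, and 56.4% of them reached the list's median. Counting only peaks that reached it, 10 cytosolic genes (11.8%) and 4 mitochondrial genes (5.13%) had a peak within 1 kb, beside 3.04% of all genes.

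The next question was how the shares stood beside those of genes with like CpG content. The CpG ratio is the number of CpG dinucleotides over that expected from the C and G content, here over 500 bp on either side of the main start site. Its median was 0.789 in the cytosolic family (95% interval of the median 0.753 to 0.825), 0.722 in the mitochondrial family (0.696 to 0.768) and 0.550 over all protein-coding genes. Over all genes the ratio had a low and a high mode, and 76 of 85 cytosolic and 69 of 78 mitochondrial genes had a ratio of at least 0.6. The lowest cytosolic value was 0.146 and the lowest mitochondrial value 0.0567. Median GC content was 56.6% and 55.9% in the families and 54.8% over all genes.

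**Figure D3:**
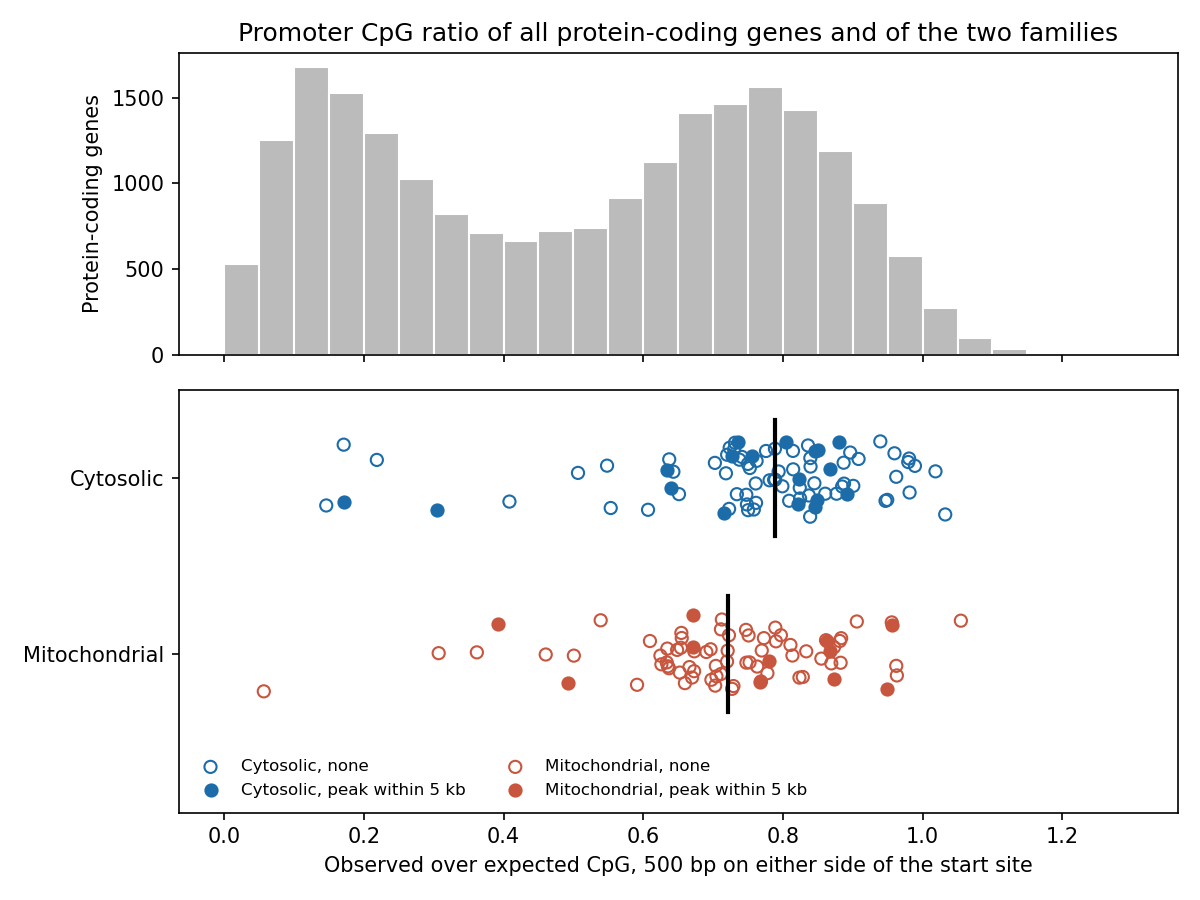
Top, number of protein-coding genes by promoter CpG ratio (observed over expected, 500 bp on either side of the start site). Bottom, every cytosolic (blue) and mitochondrial (red) gene at its ratio, filled where a peak lay within 5 kb and open where none did, with black lines at the medians of 0.789 and 0.722; vertical scatter is arbitrary.

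Genes with a peak had higher CpG ratios than genes without one across the genome, with medians of 0.756 and 0.529 for a peak within 1 kb. In the cytosolic family the medians were close, 0.823 with a peak (13 genes, 0.634 to 0.868) and 0.788 without (72 genes, 0.750 to 0.824). In the mitochondrial family they were 0.862 (9 genes, 0.492 to 0.948) and 0.721 (69 genes, 0.696 to 0.767). The intervals overlap in both families. Of the cytosolic genes without a peak within 5 kb, Rpl36al (1.03), Rpl22l1 (1.02) and Rplp1 (0.989) had the highest ratios. Of the mitochondrial ones these were Mrps30 (1.05), Mrps6 (0.963) and Mrpl43 (0.962), whose nearest peaks lay 350 kb, 382 kb and 233 kb away.

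Set against other genes of like CpG ratio, the cytosolic family kept the higher share and the mitochondrial family was closer to them. With other genes weighted to the family's own ratios in bins of 0.2, 7.82% had a peak within 1 kb beside 15.3% of the cytosolic genes, whose interval starts at 9.16%. For the mitochondrial family the figure was 7.22% beside 11.5%, with an interval from 6.19%. Within 5 kb other genes stood at 12.3% for the cytosolic and 11.6% for the mitochondrial weights, beside 21.2% (from 13.8%) and 14.1% (from 8.06%). Weighted for the number of start sites as well, other genes reached 8.57% and 13.5% for the cytosolic family in these windows. The lower end of the cytosolic interval within 5 kb, 13.8%, was then barely above them. These weights rest on ratios at main start sites. Rps14 (0.172), Rps10 (0.305) and Rps2 (0.146, but 0.899 at its principal transcript's start) thus fell in bins under 0.4. Within 5 kb, 3.43 and 5.90% of other genes in those bins had a peak, beside 14.9% between 0.8 and 1.0. Weights from other start sites were not computed, so that narrow margin may depend on the start site chosen.

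The members with peaks were mostly at promoters of high CpG ratio, as were both families as a whole. Between ratios of 0.8 and 1.0, 8 of 38 cytosolic genes (21.1%) and 5 of 21 mitochondrial genes (23.8%) had a peak within 1 kb, beside 9.83% of other genes. Between 0.6 and 0.8 the counts were 3 of 36 (8.33%) and 2 of 47 (4.26%), beside 6.70%. The families differed in how many genes fell in the upper bin, and no difference between them within a bin was tested. The ratio of Rps14 (0.172) and Rps10 (0.305) was taken at a main start site away from the peak. The peaks themselves had ratios of 0.809 and 0.888.

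**Figure D4:**
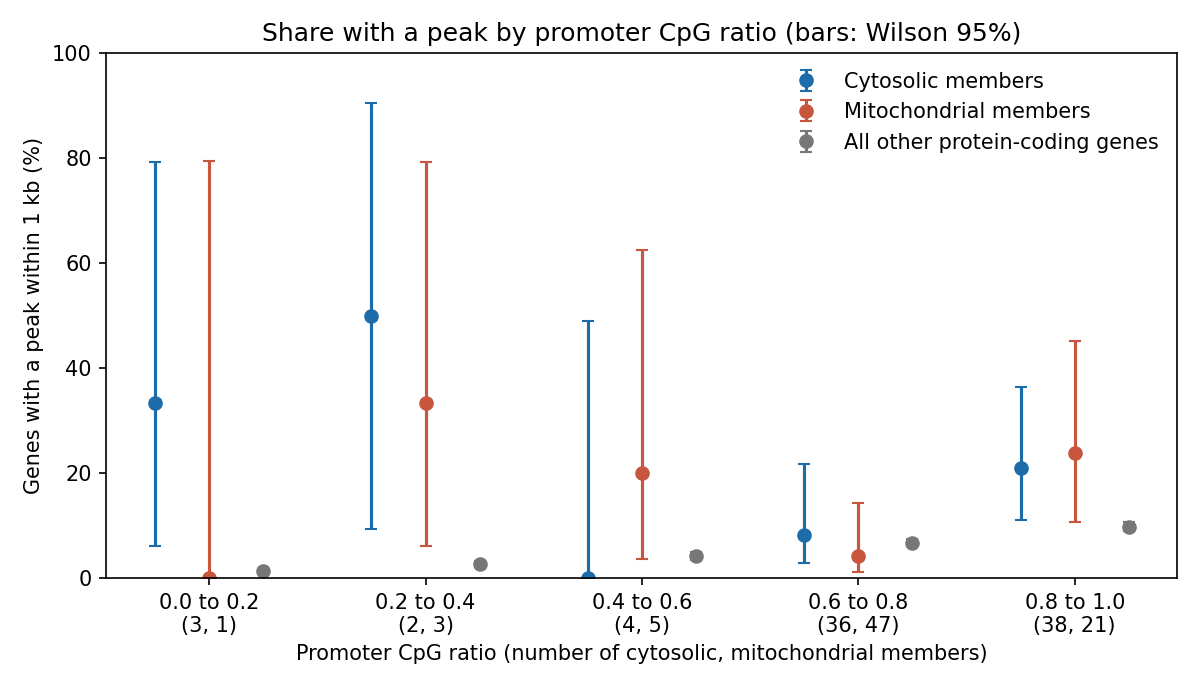
Share of genes (%) with a peak within 1 kb by promoter CpG ratio, for cytosolic (blue), mitochondrial (red) and all other protein-coding genes (grey), with Wilson 95% intervals and the number of members under each bin. Between 0.8 and 1.0 the families stand at 21.1 and 23.8% beside 9.83%, and the bins under 0.6 hold at most 5 members of either family.

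Promoter letters were then compared over 250 bases before to 50 after the main start site, on both strands. The ETS core CCGGAA was present in 36 of 85 cytosolic promoters (42.4%, 32.4 to 53.0%) and 41 of 78 mitochondrial ones (52.6%, 41.6 to 63.3%). It lay in 17.8% of all promoters and in 29.3% of those with a CpG ratio of at least 0.6. Of the 9 mitochondrial genes with a peak within 1 kb, 8 held it (Mrpl45 did not), beside 33 of the 69 without a peak. Among all genes with a peak within 1 kb 28.9% held it. In the cytosolic family 5 of 13 promoters with a peak and 31 of 72 without one held this ETS core. The window can lie away from the peak. Mrpl33 counts among the 8 although its peak lay 17600 bp from the main start site. The peak lay 596 bp from the start of its principal transcript. Under the peaks themselves the ETS core was found in 7 of 13 mitochondrial and 4 of 14 cytosolic peaks. Among all peaks within 1 kb of a start site 20.7% held it. The core of YY1 sites, ATGGCG, lay in 27.1% of cytosolic, 32.1% of mitochondrial and 10.8% of all promoters. At a CpG ratio of at least 0.6 these shares were 27.6%, 33.3% and 17.7%.

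The RBPJ core TGGGAA lay in 27 of 85 cytosolic promoters (31.8%, 22.8 to 42.3%), 19 of 78 mitochondrial ones (24.4%, 16.2 to 34.9%) and 24.9% of all. At a CpG ratio of at least 0.6 it lay in 30.3% of cytosolic (21.1 to 41.3%), 27.5% of mitochondrial (18.4 to 39.0%) and 20.1% of all promoters. The cytosolic interval included the share of all promoters in the first count and lay above it in the second. With a peak within 1 kb, 5 of 13 cytosolic and 1 of 9 mitochondrial promoters held it, beside 22 of 72 and 18 of 69 without a peak. The 5 include Rps19 and Rpl23, whose main start sites lay 2909 and 4758 bp from their peaks. Under the peaks themselves the core was found in 4 of 14 cytosolic and 2 of 13 mitochondrial peaks, beside 31.5% of all peaks within 1 kb of a start site. The other shares, for cytosolic and mitochondrial promoters, were 12.9 and 12.8% for the RUNX core TGTGGT, 45.9 and 44.9% for the SP and KLF site GGGCGG, and 11.8 and 6.41% for CACGTG. They were 10.6 and 6.41% for TATAAA and 2.35 and 1.28% for the palindromic NRF1 site. Over all promoters they were 15.2, 43.4, 7.68, 12.6 and 1.21%, and the Wilson 95% interval of each family's share included these. These other letters were not compared among promoters of like CpG ratio. No match says only that these letters are not in the window.

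Pyrimidine starts were counted next. An annotated start at C followed by at least 4 pyrimidines was found at the main start site of 10 cytosolic genes (11.8%), 1 mitochondrial gene (1.28%) and 2.27% of all genes. At any annotated start site it was found in 35 cytosolic genes (41.2%, 31.3 to 51.8%) and 7 mitochondrial genes (8.97%, 4.42 to 17.4%), beside 8.52% of all genes. Cytosolic genes have more annotated start sites, and the second share was not weighted for their number. When a C with such a run was allowed anywhere from 20 bases before to 25 after the main start site, the shares were 64.7% and 61.5%, beside 49.5% of all genes. The families were then close. Of the 13 cytosolic genes with a peak within 1 kb, 2 had a pyrimidine start at the main start site, 8 at any start site and 9 within that span. Of the 72 without a peak the counts were 8, 27 and 46. The windows below show 15 bases before and 10 after a start site in mm10, with the pyrimidine run from the start site in capitals. They cover 4 cytosolic genes with a run and 2 mitochondrial genes without one. Rps27 and Rps3 had no such run at the main start site and are shown at another annotated start, picked for its run. The others are shown at their main start sites.
Rpl37, chr15:5116630-5116654, + strand: tggcgggggtgctttCTCTTCCggt
Rpl4, chr9:64173360-64173384, + strand: agtgacaagtctttcCTTTTCCTgt
Rps27, chr3:90213639-90213663, - strand: atttccgctttcgctCCTTTCCggc
Rps3, chr7:99483642-99483666, - strand: gcccgcgagccacttCCTTTCCTTT
Mrpl34, chr8:71464944-71464968, + strand: cccagagtgtaggaactggcattga
Mrpl57, chr14:57826219-57826243, + strand: tctagcatcagggccccagagagac
The peaks of Rpl37, Rpl4 and Rps3 covered these start sites, and that of Rps27 ended just inside the gene.

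Copies of ribosomal protein sequence elsewhere in the genome bear on how reads map, so repetition was measured in each peak as the share of its 32-base strings found at several places in the genome. Of the 14 cytosolic peaks within 1 kb, 5 held such strings (35.7%), among them those of Rps7 (17.6% of strings), Rps10 (1.86%), Rpl23a (1.75%) and Rps14 (0.694%). Of the 13 mitochondrial peaks 1 did, that of Mrpl30 (3.39%). Among all peaks within 1 kb of a start site 21.7% did. Without peaks that held any such string or were over 20% soft-masked, 7 cytosolic genes (8.24%, 4.05 to 16.0%) and 6 mitochondrial genes (7.69%, 3.57 to 15.8%) had a peak within 1 kb, beside 3.77% of all genes. The 7 were Rpl4, Rps27, Rps3, Rpl21, Rpl23, Rpl37 and Rps9. How reads that map to several places were treated is not given in the sources used here, and its part in the other peaks was not tested.

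Other genes of both ribosomes and of their assembly were listed by function. Of 4 further genes of the cytosolic ribosome, 1 had a peak within 5 kb. It was Rack1, which encodes a scaffold protein on the small subunit, with a peak of score 963 that was 44.5% soft-masked. Of 6 further genes of the mitochondrial ribosome 3 had one, namely Chchd1 (score 1124), Ndufab1 (881) and Gadd45gip1 (696), and the Chchd1 peak lay nearer to Zswim8. The Gadd45gip1 and Ndufab1 peaks were 41.8% and 26.8% soft-masked. Of 30 genes of ribosome biogenesis 5 had a peak within 5 kb (16.7%, 7.34 to 33.6%). They were the snoRNP gene Gar1 (702), the processing factor genes Bop1 (688) and Bysl (1102), the nucleolin gene Ncl (924) and the RNA polymerase subunit gene Polr1d (607). The Ncl peak was 39.5% soft-masked. A start site of Hsf1 lay within 1 kb of the Bop1 peak, and those of Med20 and Gm20517 within 1 kb of the Bysl peak. Of 20 genes of mitochondrial translation and transcription 4 had one (20%, 8.07 to 41.6%), namely Mtfmt (1707), Mtrf1l (849), Lrpprc (807) and Mrrf (634). The Mtfmt peak was 82.3% soft-masked. All 4 lists stood above 8.81%, but each interval except that of the 6 mitochondrial ribosome genes included it. Within 1 kb the counts were 1 of 4, 1 of 6 (16.7%, 3.01 to 56.4%), 3 of 30 and 2 of 20 in the same order, and each interval included 5.16%.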

How the data were processed

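The data were 1 peak list from 1 Notch1 library. Per the submitters' processing notes, Bowtie 1.0.0, SAMtools 0.1.18 and build mm10 were used. Peak names start with MACS, but the sources used here do not give its version, settings, control or treatment of duplicates. Per the labels' protocols, cells were fixed in 0.5% formaldehyde for 5 min and libraries had 18 cycles of PCR. The deposited score per peak is the authors' own and has no stated unit. Read depth is unknown.

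Peaks were intersected with GENCODE M21 in Python 3.11.15, using every transcript start of a gene and an overlap of 1 bp. The 3 mitochondrial peaks were left out. Promoter sequence came from the GRCm38.p6 assembly, and 18 genes near gaps had no CpG ratio. Sequences of all promoters were scanned as presence or absence. Window counts were tested on simulated data. Intervals are Wilson or Newcombe 95% intervals (SciPy 1.17.1), and order-statistic intervals for medians. Members, lists and motifs were chosen with earlier results of these data known, so no set test was run. Values of 2 genes are counted but not reported here. Named genes were all members with a peak within 5 kb, those with one within 10 kb, and the 3 per family of highest CpG ratio without a peak.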

Additional observations from a re-analysis of the deposited data

How the results depend on the processing

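No paired analysis was possible because 1 library was analysed. Changing the transcripts or start sites used, the overlap that counts, the assignment of peaks or the members kept every share of genes with a peak inside its interval. Start sites of the principal transcript put the cytosolic share within 1 kb (10.6%) under the mitochondrial one (11.5%). A window of 20 kb in place of 1 kb gave 27.1% of cytosolic and 17.9% of mitochondrial genes, beside 17.7% of all genes, so the mitochondrial family then stood at the level of all genes. A window of 500 bp in place of 5 kb gave 12.9% of cytosolic genes, beside 4.13% of all genes. At or above the median score the mitochondrial share fell to 5.13% (1 kb) and 6.41% (5 kb), beside 3.04 and 5.07% of all genes. In the upper quartile of score the cytosolic shares were 5.88 and 8.24% and the mitochondrial share 5.13% in both windows, beside 1.60 and 2.62% of all genes. Without peaks of repeated sequence the cytosolic shares were 8.24 and 11.8%, beside 3.77 and 5.83%. The median CpG ratio over 1 kb on either side was 0.680 in the cytosolic family, 0.595 in the mitochondrial family and 0.470 over all genes. Over 250 bases before to 50 after the start it was 0.821 in the mitochondrial family, next to 0.822 in the cytosolic one, and 0.530 over all genes, so the difference between the families depended on the width. Start sites of the principal transcript, an alternative chosen after seeing the data, gave 0.571 over all genes. Quintiles of CpG ratio gave 7.94 and 12.4% of other genes for the cytosolic and 7.17 and 11.5% for the mitochondrial family. The unknown depth and the single library limit every count.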

Other observations

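Many cytosolic ribosomal protein genes host small nucleolar RNAs, which guide modification of ribosomal RNA. Small Cajal body RNAs were counted with them. The annotation placed at least 1 on the same strand inside 29 of 85 cytosolic genes (34.1%), in 0 of 78 mitochondrial genes and in 1.27% of all protein-coding genes. Of the 13 cytosolic genes with a peak within 1 kb, 6 were hosts (46.2%), beside 23 of 72 without a peak (31.9%). Rpl4 held 5, Rpl23a 3, Rpl21, Rpl23 and Rps3 held 2 each, and Rpl37 held 1.

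No peak overlapped any of 292 annotated pseudogenes with a cytosolic ribosomal protein symbol or 5 with a mitochondrial one. Over all annotated pseudogenes 38 of 13523 (0.281%) were overlapped. At so low a share, 0 of 292 does not set these pseudogenes apart. They were taken by symbol only. Fau-ps2, named after the cytosolic ribosome gene Fau, was among the 38 overlapped.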
